A study of Homo sapiens with 15 samples.

Results

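A pair of cell lines made from the breast cancer line MDA-MB-468 by EGFR knockdown and re-expression was set against MDA-MB-468 cells given EGF. RNA-Seq libraries were chosen by the start of their labels: 6 line libraries (3 labelled shEGFR-WT and 3 labelled shEGFR-NLS) and 3 libraries labelled EGF, which is 9 of the 15 libraries of the study. The study asked what EGFR does in the nucleus, and the other 6 libraries, from cells given cSNX1.3 or erlotinib, enter only an alternative fit of all libraries. Each group held 3 libraries, and the labels do not say whether these came from separate cultures, so the p-values measure only the spread between these samples.

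MDA-MB-468 is a triple-negative breast cancer line that carries many copies of EGFR. In the EGF group, according to the methods, cells were serum starved and stimulated with EGF, and received no inhibitor. Both lines carried a lentiviral short hairpin RNA against the 3′ untranslated region of EGFR, induced by IPTG and linked to puromycin resistance, and were kept in IPTG. The WT line was then transfected with EGFR-GFP of wildtype sequence. The ΔNLS line was transfected with EGFR-GFP in which basic residues of the nuclear localization sequence (NLS) were changed to aspartic acid. Both lines were treated with EGF, at a dose and time not given in the sources used here, and the sources do not say whether either line is a single clone. Neither the hairpin without introduced EGFR, nor a control hairpin, nor introduced EGFR without the hairpin was among the samples analysed here. Knockdown, introduced EGFR, transduction, selection, IPTG, culture and library preparation therefore cannot be told apart in any difference between a line and the EGF group. In bulk RNA, fewer cells expressing a gene and less of its RNA per cell cannot be told apart either.

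EGFR is a receptor tyrosine kinase of the ERBB family. Ligands such as EGF, TGFA and EPGN bind it at the cell surface, and the kinase then drives the RAS-ERK and PI3K cascades, which switch on early-response factors within minutes and cell cycle genes later. Full-length receptor can also reach the nucleus through its NLS, where it has been linked to transcription of cell cycle and immune genes. In basal breast cells EGFR signalling is further tied to keratin expression, to lipid and glucose metabolism and to the production of chemokines.

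Library totals were 24297146 to 28462807 counts in the EGF group, 30200759 to 35900649 in the WT line and 27086923 to 34091919 in the ΔNLS line. Levels are given as CPM, counts brought to a common library size with a scaling for composition. The epithelial marker EPCAM lay at 349–441 CPM over the 9 libraries. PGR had no count, ESR1 lay at 4.08–8.42 CPM, and SMAD4, which MDA-MB-468 cells lack, had at most 6 counts in a library. Of the markers of other cells, PTPRC had at most 7 counts, CD3E 2, NKG7 2 and HBB 1 in any library, and DCN was at 0. Other such markers were expressed in all 9 libraries. CSF1R lay at 18.9–27.4 CPM, COL1A1 at 8.28–18.6 CPM, KDR at 7.51–10.1 CPM and ITGAM at 2.04–3.92 CPM. The 8 leukocyte markers summed to 43.4–48.4 CPM in the EGF libraries and 52.4–67.1 CPM in the lines, a difference carried by CD14 (13.8–18.8 CPM and 25.7–41.9 CPM). The 11 markers of fibroblasts and endothelium summed to 25.6–28.5 CPM and 25.4–27.2 CPM. Within it PECAM1 lay at 0.818–1.40 CPM in the EGF libraries and 4.60–5.86 CPM in the lines. The part of such cells in the results was not tested. EGF replicate 2, WT replicate 2 and ΔNLS replicate 1 stood apart from the other replicates of their groups, and counts are given without these 3 libraries where that changes them.

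EGFR itself, on chromosome 7 (GRCh38, 55019017 to 55211628, plus strand), was measured first, because it is the target of the hairpin. Its level was 4933.5, 4330.4 and 4986.8 CPM in the 3 EGF libraries. It was 1426.4, 1146.7 and 1453.3 CPM in the WT line and 1687.4, 1750.9 and 1748.2 CPM in the ΔNLS line. All 6 line libraries lay below all 3 EGF libraries. The log2 fold change was -1.82 ± 0.11 (SE) in the WT line (adjusted p = 1.91e-09) and -1.46 ± 0.11 in the ΔNLS line (adjusted p = 6.15e-08), or 28.3% and 36.4% of the EGF level. ΔNLS exceeded WT by 0.37 on the log2 scale (adjusted p = 0.0119). Counts per gene sum reads of endogenous and introduced EGFR coding sequence, so the 2 sources cannot be told apart. The summed EGFR count was lower in both lines than in the EGF group although EGFR had been introduced. Whether the introduced EGFR carried the untranslated regions is not given in the sources used here. Without them a molecule would give fewer reads than an endogenous one. The percentages are therefore of counts, and the number of EGFR molecules was not measured.

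The rest of the receptor and ligand family moved unevenly. Of 15 genes, 11 passed the filter on low counts. ERBB2, the partner receptor of EGFR, lay at 55.8, 48.0 and 56.8 CPM in the EGF libraries, 29.8, 24.2 and 33.5 CPM in the WT line and 33.9, 34.9 and 34.7 CPM in the ΔNLS line, and fell in both (-0.88 and -0.64 on the log2 scale). TGFA, a ligand of EGFR, fell in both as well (-0.44 and -0.68). EPGN, the ligand epigen, rose in both, from 0.288, 0.268 and 0.372 CPM to 3.25, 3.10 and 3.91 CPM in the WT line and 1.56, 1.48 and 0.998 CPM in the ΔNLS line. ERBB3, which lacks an active kinase of its own, lay at 73.1, 84.7 and 74.0 CPM on average in the EGF, WT and ΔNLS libraries, and was called in the WT line and not in the ΔNLS line (0.21 and 0.02, with an adjusted p of 0.0363 for the difference between the lines). The 4 neuregulin and receptor genes below the filter were ERBB4, NRG1, NRG3 and NRG4.

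Genes beside EGFR on chromosome 7 can share its amplification, and 12 of 14 were tested. SEC61G, which encodes a subunit of the protein channel of the endoplasmic reticulum, fell in both lines, from 3188.4, 3501.7 and 3114.9 CPM to 1791.1–1964.2 CPM in the WT line and 1919.2–1952.4 CPM in the ΔNLS line (-0.79 ± 0.09 and -0.75 ± 0.09). LANCL2, NIPSNAP2, SUMF2 and NUPR2 rose in both lines, by 0.23 to 0.96 on the log2 scale. That count of 4 was 2 without EGF replicate 1 or without EGF replicate 3. CCT6A, VOPP1 and CHCHD2, also highly expressed, were called in neither line, with log2 fold changes of -0.08 to 0.19. No neighbour fell as far as EGFR.

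**Figure D1:**
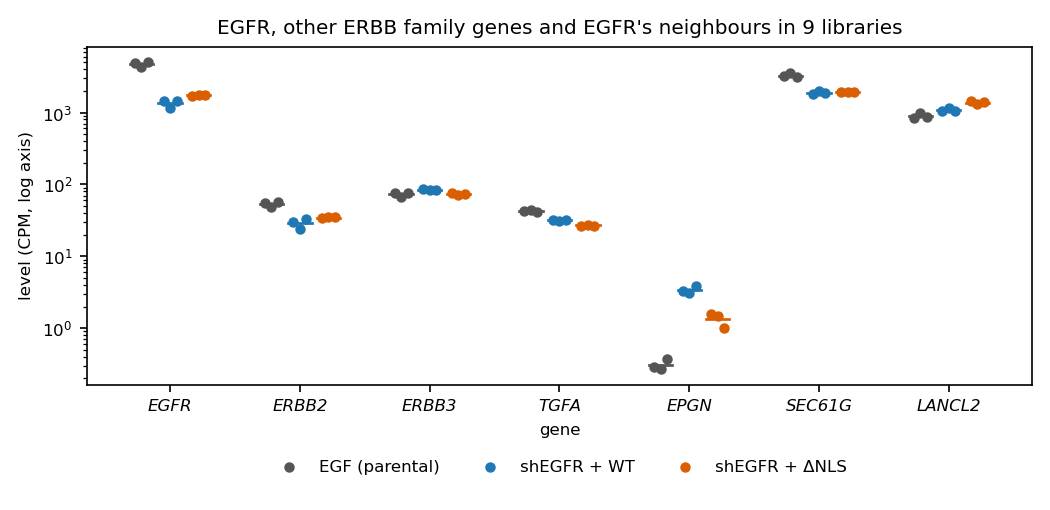
Level (CPM, log axis) of EGFR, 4 further ERBB family genes and 2 chromosome 7 neighbours in the 9 libraries; points are libraries, short lines are group means, grey is EGF, blue the WT line and orange the ΔNLS line. EGFR, ERBB2, TGFA and SEC61G were lower in all 6 line libraries, EPGN and LANCL2 higher, and ERBB3 overlapped.

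Genes that moved the same way in both lines were defined as those with a Benjamini-Hochberg adjusted p under 0.05 in edgeR's quasi-likelihood test in each of the comparisons WT line vs. EGF and ΔNLS line vs. EGF. Both comparisons share the 3 EGF libraries, so any peculiarity of those libraries enters both, and the number of genes shared by the lines is not independent evidence from either. Of 16082 genes tested, 25.2% were higher and 25.5% lower in the WT line (4057 and 4096 genes), and 20.5% were higher and 20.7% lower in the ΔNLS line (3293 and 3331 genes). Higher in both lines were 2120 genes, or 13.2%, and lower in both were 2096 genes, or 13%. In opposite directions moved 382 genes, or 2.38%. Between the lines themselves 37.8% of genes differed.

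By level alone, all 6 line libraries lay above all 3 EGF libraries for 16.1% of genes (2586) and below them for 16.4% (2634). Of the genes called higher in both lines, 2014 of 2120 had no overlap between the lines and the EGF libraries, and of those called lower, 2000 of 2096. Large changes were more often increases: 512 genes rose more than 2-fold in both lines and 211 fell more than 2-fold in both, and tested against a change of 1.5-fold the counts were 375 and 187. The genes that rose were expressed at a median of 14.6 CPM, close to the 14.1 CPM of genes in neither set nor opposite, and those that fell at 31.7 CPM. Long noncoding RNAs were 13.6% of the genes that rose and 4.87% of those that fell, beside 12.6% of all genes tested. The 2 sets also differed in the base composition of their transcripts, with a median GC content of 46.5% for the genes that rose and 52.7% for those that fell. With offsets for GC content and length in the fit, the counts were 2348 and 2480. The WT line moved further from the EGF group than the ΔNLS line for 62.3% of the genes that rose and 62.0% of those that fell, beside 58.6% of all genes tested. The lines differed from each other in 862 of the genes that rose (40.7%) and 686 of those that fell (32.7%).

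With library totals in place of composition scaling, the median of all genes was 0.02 in the WT line and 0.09 in the ΔNLS line, against -0.00 in both here. Among the genes called in each line, the share that were higher then went from 49.8% to 52.9% in the WT line. In the ΔNLS line it went from 49.7% to 64.6%. The counts of genes higher and lower in both lines were 2548 and 1531. All log2 fold changes are relative to the median gene, and values near 0.09 in the ΔNLS line depend on the scaling.

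**Figure D2:**
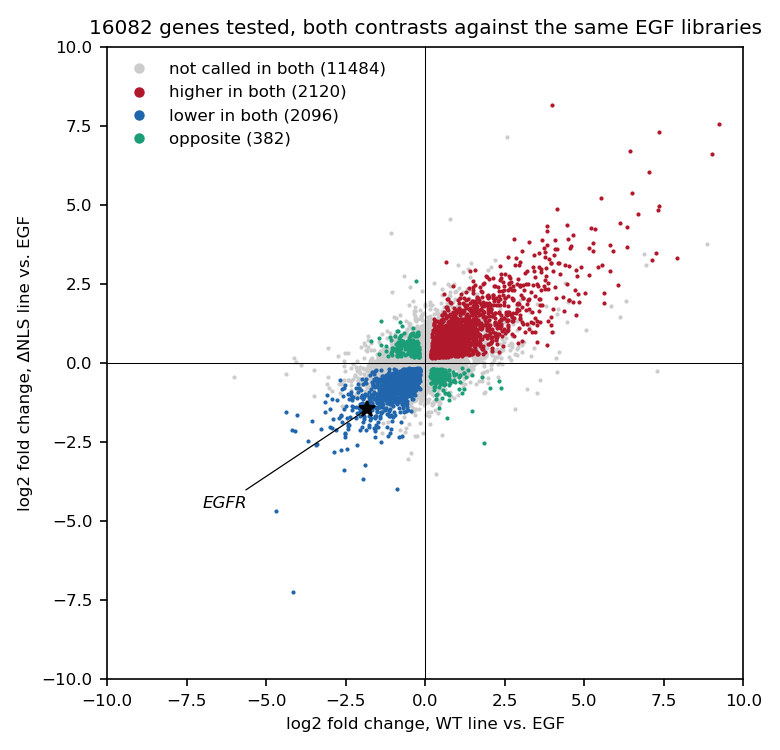
Log2 fold change of each of 16082 genes in the ΔNLS line (vertical) against the WT line (horizontal), both relative to the same 3 EGF libraries. Red marks the 2120 genes higher in both, blue the 2096 lower in both, green the 382 called in opposite directions and grey the 11484 others; the star is EGFR, at -1.82 and -1.46.

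The genes with the largest change shared by the lines were silent or nearly so in the EGF libraries, all 15 of those named lying under 1 CPM in each. COL6A1, a chain of collagen VI, had 11 counts in the 3 EGF libraries together (0.124, 0.153 and 0.149 CPM) and lay at 3.38, 3.39 and 2.91 CPM in the WT line and 3.37, 2.81 and 2.81 CPM in the ΔNLS line, with log2 fold changes of 4.46 ± 0.27 and 4.36 ± 0.27. The lines overlapped in this gene (difference -0.10, adjusted p = 0.659). CYP4Z1, a fatty acid hydroxylase of breast tissue, was the only gene of the 15 with a larger change in the ΔNLS line, at 0.577, 0.766 and 0.446 CPM in the EGF libraries, 5.44, 6.01 and 5.82 CPM in the WT line and 8.30, 8.84 and 8.48 CPM in the ΔNLS line (3.26 and 3.83). PIP, the secreted prolactin-induced protein of apocrine cells, went from 0.330, 0.881 and 0.706 CPM to 23.7, 28.7 and 23.5 CPM in the WT line and 9.63, 8.59 and 8.87 CPM in the ΔNLS line (5.28 ± 0.19 and 3.80 ± 0.20).

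ALDH3A1, an aldehyde dehydrogenase, rose from 0.577, 0.306 and 0.372 CPM to 8.32–9.24 CPM in the WT line and 3.34–3.99 CPM in the ΔNLS line. BCAS1 rose from 0.306–0.892 CPM to 9.78–11.8 CPM and 5.13–5.59 CPM. The transporter gene SLC22A31 and the protease inhibitor SPINK2 were at 14 and 13 counts in the EGF group and rose by 4.07 and 3.89, and by 4.04 and 3.42. For genes at no more than 3 counts in each EGF library, only a bound on the fold is given, set by 3 counts per library. BPIFB1, a secreted mucosal defence protein, was at least 16.3-fold higher in the WT line and at least 11.2-fold higher in the ΔNLS line. ATP10B, a lipid flippase, was at least 28.7-fold and at least 5.51-fold higher. TMEM59L (7.02 and 6.04), RTBDN (3.78 and 3.35) and CYP4Z1 each overlap a gene on the opposite strand, and counting without regard to strand cannot tell their reads apart. In each of these genes all 6 line libraries lay above all 3 EGF libraries, as the rule that chose them required.

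The 15 genes named for the largest fall shared by the lines lay at 2.11–96.8 CPM in the EGF libraries, a lower end that the level asked of named genes in part sets. KRT75, a hair follicle keratin, lay at 11.1, 17.3 and 10 CPM in the EGF libraries, 0.663, 0.950 and 1.33 CPM in the WT line and 2.62, 2.38 and 1.92 CPM in the ΔNLS line (-3.68 ± 0.25 and -2.46 ± 0.22). GSTP1, a glutathione transferase, was the most abundant of the 15, and went from 73.4, 96.8 and 70.0 CPM to 12.5, 14.4 and 12.3 CPM in the WT line and 23.8, 19.5 and 22.9 CPM in the ΔNLS line (-2.61 ± 0.12 and -1.86 ± 0.12). RELN, the secreted matrix protein reelin, fell further in the ΔNLS line (-1.97 and -3.66), from 2.31–2.83 CPM to 0.444–0.823 CPM in the WT line and 0.0618–0.428 CPM in the ΔNLS line. The 3 groups of libraries did not overlap in RELN.

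LIMS2 and NEXN, which encode proteins of focal adhesions and actin filaments, fell by 2.52 and 2.51 on the log2 scale in the WT line and by 2.26 and 2.22 in the ΔNLS line. NPR3, a natriuretic peptide clearance receptor, went from 7.21–9.04 CPM to 1.36–1.61 CPM and 1.67–2.08 CPM. ICAM5, an adhesion molecule, went from 7.09–8.81 CPM to 1.33–1.61 CPM and 1.79–2.03 CPM. In both genes the lines lay far below the lowest EGF library. SLC2A6, a hexose transporter, fell by 2.04 and 1.68 on the log2 scale, and RAB7B, a GTPase of late endosomes, by 1.77 and 1.67. HCN4 (-1.91 and -1.69), TMEM178B (-2.35 and -1.72), ALOXE3 (-1.71 and -1.74) and SPOCD1 (-1.75 and -2.02) completed the set with ULBP2 and CXCL8, which are described with their families.

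**Figure D3:**
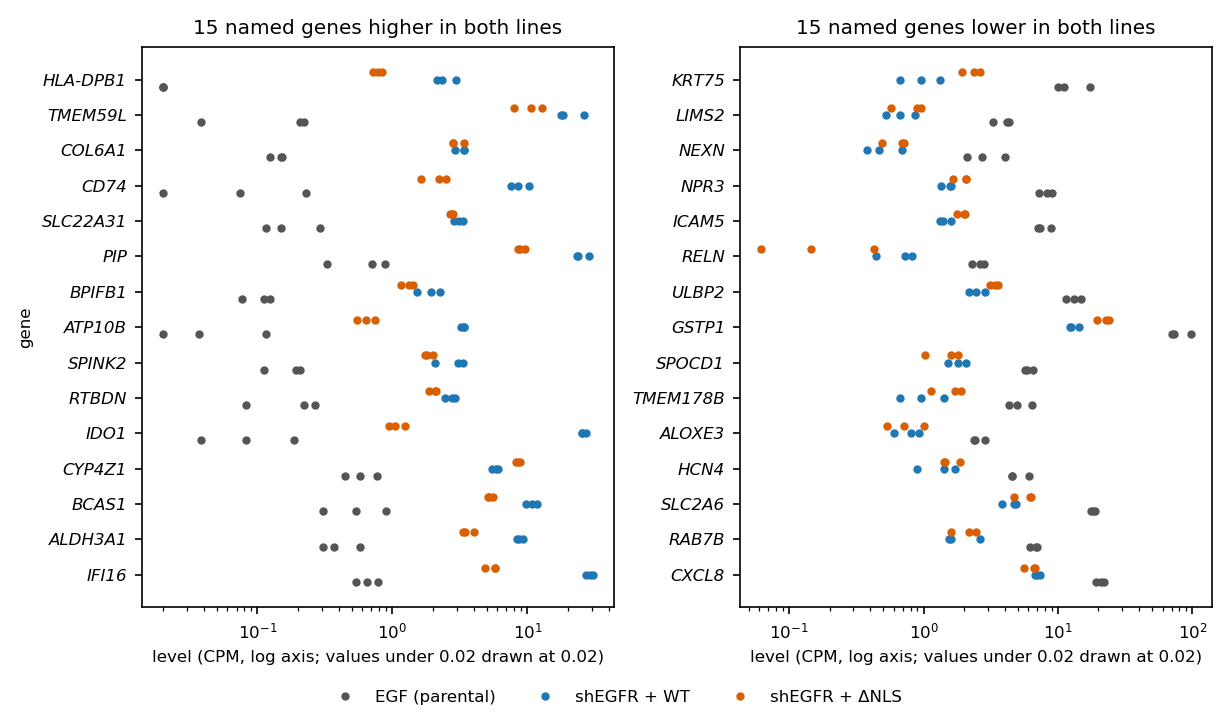
Levels (CPM, log axis, values under 0.02 drawn at 0.02) of the 15 genes named as higher and the 15 named as lower in both lines, one row per gene and one point per library (grey EGF, blue WT line, orange ΔNLS line). The grey points stand clear of both lines in every row, which the rule for naming required, and WT and ΔNLS points fall together for COL6A1 and LIMS2 and apart for IDO1 and ATP10B.

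Genes of cholesterol synthesis and uptake had the largest share of calls in 1 direction shared by both lines of any list described here. The mevalonate pathway builds cholesterol from acetyl-CoA through mevalonate and squalene, and the transcription factor SREBP2 switches its enzymes on when sterols are scarce. A list's counts are read against all genes tested, of which 13.2% rose in both lines, 13% fell in both and 2.38% were opposite. Counts of genes that differed between the lines are read against 37.8% of all genes. Of 25 genes, 23 fell in both lines and none rose in both. In all 23 the 6 line libraries lay below the 3 EGF libraries, where 16.4% of all genes did. The same held for 2000 of the 2096 genes called lower in both lines, so it adds little to the call. The median log2 fold change was -0.96 in the WT line and -1.02 in the ΔNLS line, beside -0.00 for all genes. The count stayed at 23 or 24 with other scalings, filters and left-out libraries, and was 15 against a change of 1.5-fold.

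HMGCS1, the HMG-CoA synthase at the head of the pathway, lay at 810, 810 and 813 CPM in the EGF libraries, 371, 325 and 381 CPM in the WT line and 267, 271 and 259 CPM in the ΔNLS line (-1.18 ± 0.08 and -1.61 ± 0.08). SQLE, the squalene epoxidase, went from 300.4, 341 and 294 CPM to 162, 154 and 155 CPM and to 168, 152 and 151 CPM (-0.99 and -0.99). LSS, which closes the sterol rings, fell from 467, 415 and 461 CPM to 128–153 CPM in the WT line and 180–194 CPM in the ΔNLS line (-1.66 and -1.27). The spread within each group was small beside these changes. INSIG1, which holds SREBP2 back in the endoplasmic reticulum, fell by 1.02 and 1.07 on the log2 scale, and SREBF2, which encodes SREBP2, by 0.62 and 0.54. PMVK, a kinase of the mevalonate branch, was not among the 23 (0.04 and 0.22).

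Promoters, from 250 bases before to 50 bases after the gene start, were searched on both strands for the sterol element TCACNCCAC, since SREBP2 binds such an element. RefSeq promoters (GRCh38.p14) were matched for 18 of the 25 genes and for 72.03% of all genes tested, which is too few for a comparison of shares between gene sets, so that comparison is void. The letters were found in 1.08% of all 11584 promoters and in 1 of the 18, that of SREBF2 itself, 133 bases before its start at chr22:41832962-41832991 on the plus strand. It is shown with the match in capitals because SREBF2 is the regulator of the list, and a match is a description of letters, not of binding.
SREBF2: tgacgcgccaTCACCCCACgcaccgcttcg

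Other lipid and sugar genes fell in part. Of 13 fatty acid synthesis genes 5 fell in both lines, among them ACLY, which makes cytosolic acetyl-CoA (-0.94 and -0.72), ACSS2 (-1.16 and -0.65) and ELOVL5 (-0.88 and -0.61), and 2 rose, SREBF1 and THRSP, of which 1 was called without the 3 libraries that stood apart. ELOVL6 and FADS2 moved in opposite directions in the lines. Of 31 genes of glycolysis and the hypoxia response 15 fell in both and none rose, with medians of -0.23 and -0.46. PFKP, the platelet phosphofructokinase, fell furthest, from 471, 538 and 457 CPM to 117, 117 and 123 CPM in the WT line and 184, 155 and 170 CPM in the ΔNLS line (-2.04 ± 0.09 and -1.53 ± 0.08). CA9, a carbonic anhydrase induced by hypoxia, went from 208, 242 and 210 CPM to 63.7–76.3 CPM and 80.5–98.3 CPM (-1.67 and -1.29), and VEGFA, the vascular growth factor, from 210–242 CPM to 74.5–92.1 CPM and 114–119 CPM (-1.42 and -0.94). These 3 genes were each lower in WT than in ΔNLS.

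The ATF4 program of amino acid synthesis and import fell more in the WT line than in the ΔNLS line. Of 22 genes 12 fell in both lines and none rose, with medians of -0.84 and -0.23, and 21 of the 22 were higher in ΔNLS than in WT. ATF4 itself lay at 1244.3, 1226.1 and 1160.1 CPM in the EGF libraries, 686, 660 and 692 CPM in the WT line and 903, 829 and 909 CPM in the ΔNLS line (-0.83 and -0.46). SLC7A5, the large neutral amino acid transporter, fell by 1.56 and 0.58 on the log2 scale. DDIT4, an inhibitor of mTORC1, went from 809, 818 and 766 CPM to 252, 245 and 252 CPM and to 318, 288 and 322 CPM (-1.68 and -1.37). Against a change of 1.5-fold 1 of the 22 was called in both lines. With library totals 8 fell in both lines and 2 were opposite. Without the 3 libraries that stood apart 14 fell in both lines and 2 were opposite. Chaperones of the endoplasmic reticulum fell in both lines for 7 of 18 genes, led in the ΔNLS line by HSPA5 (-0.42 and -1.12) and in the WT line by HYOU1 (-0.87 and -0.48).

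DNA replication genes rose in both lines while genes of mitosis did not. The first group licenses origins, makes nucleotides and copies DNA in S phase, and the second builds the spindle and separates chromosomes. Of 36 replication genes 31 rose in both lines, where 13.2% of all genes did, and none fell in both. The medians were 0.45 in the WT line and 0.82 in the ΔNLS line. In 30 genes all 6 line libraries lay above the EGF libraries, where 16.1% of all genes did. Genes called higher in both lines had no overlap in 2014 of 2120 cases, so this adds little to the call. The changes were small: against 1.5-fold the count was 3. With other scalings, filters and left-out libraries it was 29 to 32.

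CDC45, a helicase subunit, lay at 47.4, 44.2 and 45.8 CPM in the EGF libraries, 67.3, 67.7 and 67.3 CPM in the WT line and 116, 117 and 114 CPM in the ΔNLS line (0.56 ± 0.06 and 1.34 ± 0.06). RRM2, a subunit of ribonucleotide reductase, went from 335, 369 and 347 CPM to 429, 415 and 426 CPM and to 820, 810 and 828 CPM (0.27 and 1.23). MCM2, part of the replicative helicase, rose about equally, from 126, 141 and 124 CPM to 227, 238 and 224 CPM and to 261, 220 and 232 CPM (0.82 and 0.87). The 3 groups of libraries were thus in the order EGF, WT, ΔNLS for CDC45 and RRM2, whereas WT and ΔNLS overlapped for MCM2. The lines differed in 23 of the 36 genes, where 37.8% of all genes differed, and 22 of the 23 were higher in ΔNLS. TK1, thymidine kinase, was the gene called in opposite directions, and MCM7, GINS4, ORC6 and RFC5 were called in at most 1 line.

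In mitosis the lines lay on either side of the EGF libraries. Of 34 genes 19 were lower in WT and higher in ΔNLS, where 2.38% of all genes were opposite, 4 fell in both (PLK1, CCNB1, CDC20 and CDC25B), near the 13% of all genes, and none rose in both. All 34 were higher in ΔNLS than in WT, with medians of -0.89 and 0.44 relative to EGF. PLK1, a mitotic kinase, lay at 129, 154 and 128 CPM in the EGF libraries, 46.3, 46.8 and 48.7 CPM in the WT line and 117, 111 and 125 CPM in the ΔNLS line (-1.53 and -0.22). CCNB1, cyclin B1, went from 141, 171 and 143 CPM to 37.9–42.9 CPM and 93.5–112 CPM (-1.90 and -0.60). The falls in ΔNLS were near the threshold except in CCNB1: the count of 4 was 2 without EGF replicate 2, without ΔNLS replicate 1 or without WT replicate 1, and 1 without ΔNLS replicate 2 or with library totals. CENPE and CENPF, large kinetochore proteins, showed how the replicates that stood apart differed, since CENPF lay at 144, 86.6 and 145 CPM in the EGF libraries and 70.6, 39.7 and 68.8 CPM in the WT line. Without the 3 libraries that stood apart, the count of genes in opposite directions over all genes was 659 in place of 382. Of the replication-dependent histones, near-identical copies whose reads may be split, 20 of 44 were tested, 3 fell in both lines and none rose. H2BC12 fell most, from 35.9–41.6 CPM to 15–18.7 CPM and 6.86–8.82 CPM.

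**Figure D4:**
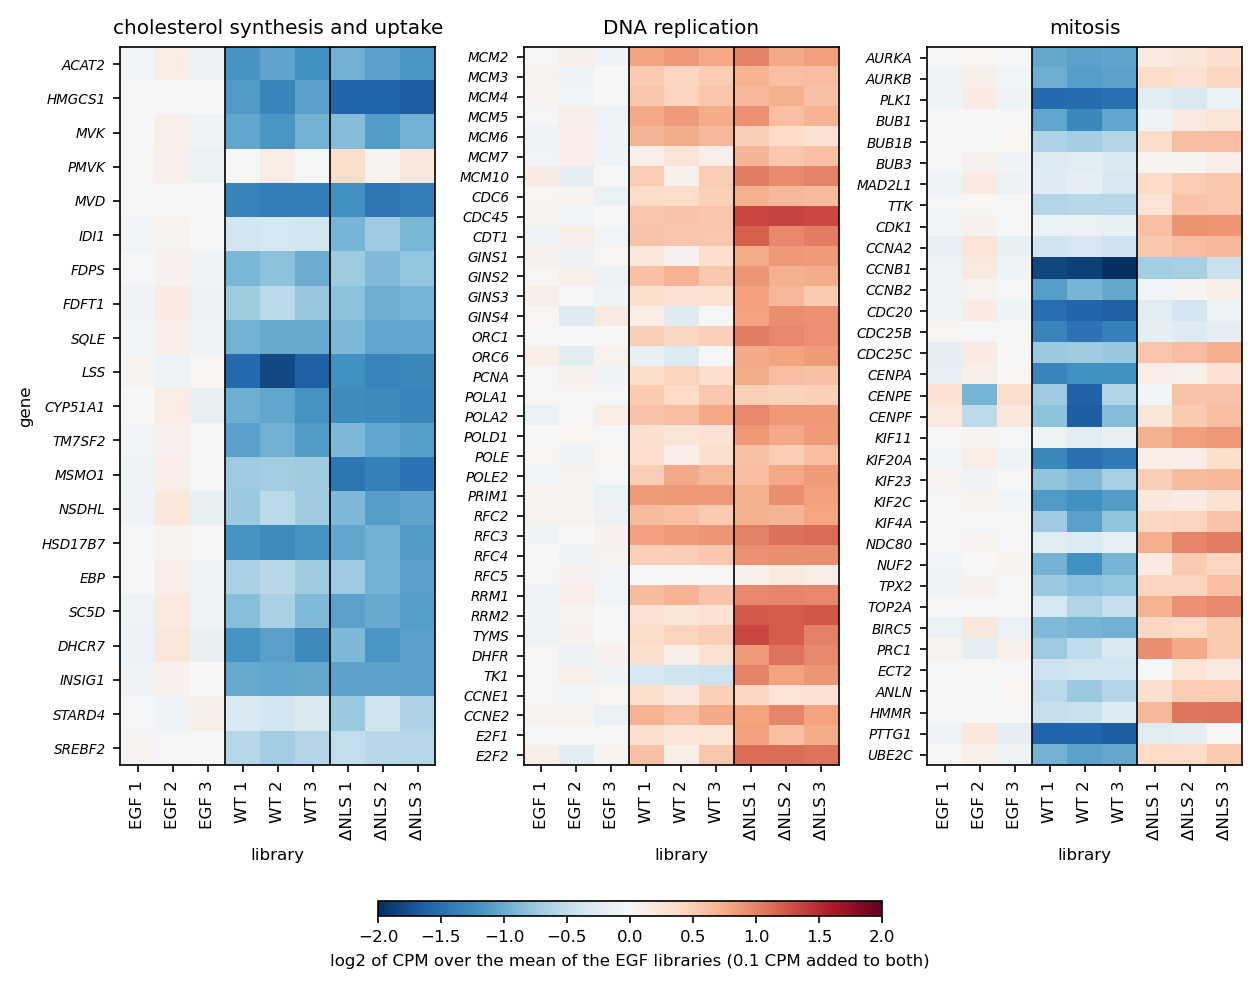
Log2 ratio of CPM to the mean of the EGF libraries (0.1 CPM added to both) for 21 cholesterol, 36 replication and 34 mitosis genes, one row per gene and one column per library. The cholesterol genes drawn are blue in all 6 line libraries except PMVK. Most replication genes are red in both lines and most are stronger in ΔNLS, while TK1 is blue in WT. Mitosis genes are blue in WT and mostly red in ΔNLS.

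Interferon-stimulated genes, which encode antiviral and antigen-presentation proteins, rose in both lines but more in WT. Of 34 tested, 20 rose in both lines, where 13.2% of all genes did, and 3 fell (ISG20, OASL and IRF7). The medians were 1.55 in the WT line and 0.54 in the ΔNLS line, or 0.47 in the ΔNLS line with EPSTI1, which had 3 counts in the EGF group, at its bound. The lines differed in 29 of the genes, where 37.8% of all genes differed, each time with WT higher. The count of 20 was 10 against a change of 1.5-fold.

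IFI6, an antiviral membrane protein, lay at 4.45, 4.98 and 4.83 CPM in the EGF libraries, 53.9, 68.4 and 56.6 CPM in the WT line and 21.1, 22.9 and 27.4 CPM in the ΔNLS line (3.65 ± 0.13 and 2.32 ± 0.13). BST2, which tethers budding virus to the membrane, went from 17.1, 19.8 and 17.4 CPM to 66.2, 84.2 and 69.7 CPM and to 47.2, 51.7 and 53.4 CPM (2.02 and 1.49). OAS2, a sensor of double-stranded RNA, went from 2.97, 2.91 and 3.61 CPM to 30.6, 33.0 and 30.7 CPM and to 6.49, 8.4 and 8.44 CPM (3.31 and 1.29). In each of these genes the order was EGF, ΔNLS, WT with no overlap between groups. MX1, a GTPase that blocks viral replication, rose by 1.73 and 0.55 on the log2 scale. ISG15, a ubiquitin-like modifier, was higher in WT and lower in ΔNLS (0.49 and -0.39). OASL fell from 10.5, 8.43 and 9.78 CPM to 4.51, 4.46 and 4.88 CPM and to 2.02, 3.37 and 2.74 CPM, and ISG20 by 0.46 and 1.53 on the log2 scale.

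IFI16 and IDO1, which interferon also induces but which were not on the list, were among the 15 genes named for the size of their rise. IFI16, a sensor of DNA, went from 0.536, 0.651 and 0.781 CPM to 29.3, 27.1 and 30.4 CPM in the WT line and 5.74, 5.75 and 4.85 CPM in the ΔNLS line (5.45 ± 0.15 and 3.04 ± 0.17). IDO1, which degrades tryptophan, had 8 counts in the EGF group and lay at 25.6, 25.3 and 27.4 CPM in the WT line and 0.951, 1.05 and 1.25 CPM in the ΔNLS line. The lines differed in IDO1 by -4.6 on the log2 scale (ΔNLS minus WT, adjusted p = 1e-11).

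The same promoter windows were searched on both strands for 2 copies of GAAA set 2 bases apart, the core of the element bound by interferon-activated factors. It was found in 2.75% of the 11584 promoters of tested genes (318) and in 17 of the 27 promoters matched for the 34 genes (63%). Since only 79.41% of the list had a promoter in the table, the comparison of these shares is void. Windows of 30 bases lying before the start were taken for 15 genes with a match, of which 8 rose in both lines and 1, ISG20, fell. Those of 3 genes that rose and of ISG20 follow with the match in capitals, to show that a like match also stood before a gene that fell. They lie at chr1:27672288-27672317 (IFI6, minus strand, 115 bases before the start), chr19:17405735-17405764 (BST2, minus strand, 124 bases), chr12:112938321-112938350 (OAS3, plus strand, 143 bases) and chr15:88638937-88638966 (ISG20, plus strand, 69 bases), in GRCh38.p14 from RefSeq.
IFI6: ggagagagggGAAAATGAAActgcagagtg
BST2: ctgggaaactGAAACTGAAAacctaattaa
OAS3: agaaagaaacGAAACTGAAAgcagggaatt
ISG20: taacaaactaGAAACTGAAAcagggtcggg

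Class I antigen presentation, by which cells show peptides to T cells and inhibit NK cells, rose in part. Of 20 genes 8 rose in both lines and 1, the chaperone CALR, fell, with medians of 0.62 and 0.23. HLA-B lay at 329, 418 and 318 CPM in the EGF libraries, 1101.7, 1379.9 and 1125.7 CPM in the WT line and 639, 576 and 603 CPM in the ΔNLS line (1.76 and 0.77). HLA-C rose by 1.23 and 0.42, and the immunoproteasome subunits PSMB8, PSMB9 and PSMB10 by 0.77 to 1.04 in the WT line and 0.32 to 0.48 in the ΔNLS line. HLA genes are near-identical, and their reads may have been split between copies. The changes in ΔNLS were small: the count of 8 was 5 without EGF replicate 1 or EGF replicate 3 and 0 against a change of 1.5-fold.

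Class II genes, which professional antigen-presenting cells use and which CIITA controls, were put together as a list after HLA-DPB1 and CD74 had been seen among the largest increases, so their count is a description only. Of 9 tested, 8 rose in both lines from a very low level, and 1 was still called where 10 counts were required in every library. CD74, the invariant chain, had 8 counts in the EGF group and lay at 8.52, 10.3 and 7.51 CPM in the WT line and 2.51, 1.64 and 2.21 CPM in the ΔNLS line. HLA-DPA1 went from 0.247, 0.575 and 0.520 CPM to 8.25, 9.72 and 8.10 CPM and to 3.49, 3.24 and 2.85 CPM (4.25 ± 0.21 and 2.81 ± 0.24). HLA-DPB1 overlaps it on the opposite strand, so their reads cannot be told apart; with no count in any EGF library, it was at least 21.3-fold higher in WT and at least 6.64-fold higher in ΔNLS. CIITA lay at 0.495, 0.268 and 0.223 CPM, 2.59, 1.3 and 2.91 CPM, and 1.33, 2.04 and 1.5 CPM (2.79 and 2.31). The median of the 9 was 4.25 in WT and 2.81 in ΔNLS, or 3.20 and 2.31 with the genes at the floor set to their bound.

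NKG2D ligands, stress-induced surface proteins that activate NK cells, fell in both lines for 4 of 8 genes, and none rose in both. The study examined this family in these libraries, so the count is not independent evidence. MICA lay at 70.3, 74.0 and 71.0 CPM in the EGF libraries, 34.1, 33.5 and 36.2 CPM in the WT line and 52.9, 46.0 and 46.6 CPM in the ΔNLS line (-1.05 ± 0.07 and -0.56 ± 0.07). ULBP2 went from 13.2, 14.8 and 11.6 CPM to 2.85, 2.47 and 2.19 CPM and to 3.60, 3.12 and 3.42 CPM (-2.40 ± 0.14 and -1.96 ± 0.14). ULBP3 fell by 1.17 and 0.58 on the log2 scale and RAET1L, at 1.11–2.12 CPM in the EGF libraries, by 4.10 and 2.17. In all 4 the 6 line libraries lay below the EGF libraries, where 16.4% of all genes did. Genes called lower in both lines had no overlap in 2000 of 2096 cases, so this adds little to the call. MICB and ULBP1 were called lower in WT, had values near 0 in ΔNLS (-0.06 and -0.01) and differed between the lines, as did 6 of the 8 genes, each higher in ΔNLS than in WT. RAET1E and RAET1G, at most 1.91 CPM on average, had 0.86 and 0.55 in WT and 1.01 and 0.87 in ΔNLS. In both genes all 6 line libraries lay above the EGF libraries, where 16.1% of all genes did, and both were called higher in ΔNLS. Both were called in the 2 lines when EGF replicate 1 was left out, and 1 of them with no filter or with the GC and length offsets. The family shares sequence, so reads may be split.

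Chemokines and NF-kB targets fell in both lines for 11 of 21 tested genes and rose for 3, with medians of -0.53 and -0.81. CXCL8, the neutrophil attractant interleukin 8, lay at 20.8, 22.1 and 19.2 CPM in the EGF libraries, 6.70, 6.93 and 7.35 CPM in the WT line and 5.56, 6.67 and 6.70 CPM in the ΔNLS line (-1.57 ± 0.11 and -1.72 ± 0.11). ICAM1, a ligand of leukocyte integrins, went from 117, 121 and 115 CPM to 53.1–55.3 CPM and 61.9–71.1 CPM (-1.12 and -0.81). RELB and NFKB2, subunits of NF-kB, fell by 0.82 and 0.66 in WT and by 1.17 and 0.84 in ΔNLS, and BIRC3, an inhibitor of apoptosis that NF-kB induces, by 0.54 and 1.48. The 3 genes that rose were CCL28, SAA1 and IL18, and IL18 did so mainly in WT (1.82 and 0.28). Another 11 genes of the list, IL6 and CCL5 among them, were below the filter.

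Among death receptors and BCL2 family genes, 4 of 18 rose and 4 fell in both lines, where 13.2% and 13% of all genes did. TNFSF10, the death ligand TRAIL, lay at 29.8, 24.5 and 27.1 CPM in the EGF libraries, 108, 115 and 102 CPM in the WT line and 54.3, 62.6 and 59.5 CPM in the ΔNLS line (1.99 ± 0.09 and 1.12 ± 0.09). FAS, a death receptor, rose by 1.42 and 1.09, and BCL2L11, which encodes the death effector BIM, by 0.89 and 0.88. The TRAIL receptors TNFRSF10A (-0.69 and -0.53) and TNFRSF10D (-0.96 and -0.85) fell. TNFRSF10B, the other TRAIL receptor tested, was called lower in WT and not in ΔNLS (-0.55 and -0.14, adjusted p = 0.00408 for the difference between the lines). Of 17 p53 and growth-arrest genes 4 rose and 2 fell, beside the same shares of all genes; CDKN2C, an inhibitor of CDK4 and CDK6, rose from 55.8–58.9 CPM to 80.4–82.7 CPM in WT and 156–174 CPM in ΔNLS.

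ERK output genes shared few calls between the lines. Of 10 such genes, feedback inhibitors and targets of the cascade, 4 were called lower in WT and 5 in ΔNLS, where 25.5% and 20.7% of all genes were. Between the lines 7 of the 10 differed, where 37.8% of all genes did. In both lines 1 rose (DUSP6, 0.32 and 0.24), 1 fell (SPRY2, -0.56 and -0.57) and 1 was opposite (DUSP4). CCND1, cyclin D1, was called lower in ΔNLS and not in WT (-0.14 and -1.06, adjusted p = 1.67e-06 for the difference), and SPRY4 lower in WT and not in ΔNLS (-0.87 and -0.15, adjusted p = 0.00243). DUSP6 was near the threshold in ΔNLS, and it was called in both lines neither by DESeq2 nor when any library other than EGF replicate 2 or WT replicate 2 was left out. The summed level of the 10 genes was 493–528 CPM in the EGF libraries, 430–497 CPM in the WT line and 346–355 CPM in the ΔNLS line, and the median log2 fold changes were -0.12 and -0.21. Of 18 early-response factors 7 fell in both lines and 1 rose, with medians of -0.64 and -0.48. IER3 lay at 392, 346 and 370 CPM in the EGF libraries, 131, 118 and 136 CPM in the WT line and 251, 223 and 222 CPM in the ΔNLS line (-1.52 and -0.67), and KLF6 fell by 0.60 and 0.87. NR4A2, a nuclear receptor, went the other way, from 7.05, 5.29 and 7.73 CPM to 26.3, 23.7 and 27.7 CPM and to 11.6, 13.1 and 10.1 CPM. FOS and EGR1 overlapped between the groups. Against a change of 1.5-fold none of the 18 was called in both lines.

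Genes of the actin cytoskeleton, many of them targets of the transcription factor SRF, fell in both lines for 11 of 19 and rose for 1, ACTA2, with medians of -0.46 and -0.50. SRF itself lay at 73.3, 70.7 and 75.6 CPM in the EGF libraries, 39.2, 35.9 and 42.7 CPM in the WT line and 44.8, 39.8 and 42.1 CPM in the ΔNLS line (-0.90 and -0.79). TAGLN, transgelin, went from 26.3, 33.8 and 25.7 CPM to 6.18–7.72 CPM and 11.9–17 CPM (-1.99 and -1.02), and FLNA, filamin A, from 4600.0–4649.2 CPM to 2428.8–2889.6 CPM and 3039.5–3597.3 CPM (-0.78 and -0.49). ACTB and ACTG1, the cytoplasmic actins, fell by 0.45 and 0.44 in WT and by 0.59 and 0.61 in ΔNLS. The actin genes are near-identical in sequence, and reads may be split among them. Of 19 YAP-TEAD targets 5 fell and none rose; that count was 3 with library totals, with GC and length offsets or without EGF replicate 1, EGF replicate 3 or WT replicate 2.

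Epithelial differentiation genes rose in part. Of 22 cornified envelope genes, which make the barrier of stratified epithelium, 9 rose in both lines, 1 fell and 6 were opposite, with medians of 1.02 and 0.31. S100A8, a calcium-binding protein of inflamed epithelium, lay at 207, 259 and 186 CPM in the EGF libraries, 1384.1, 1665.3 and 1379.8 CPM in the WT line and 1177.5, 1076.2 and 1259.4 CPM in the ΔNLS line (2.76 ± 0.12 and 2.43 ± 0.12). SPRR1B, a cross-linked envelope protein with close relatives, went from 4.71–5.06 CPM to 44.4–49.2 CPM and 14–19.1 CPM, and IVL, involucrin, from 24.7–33.0 CPM to 112–146 CPM and 45.5–49.4 CPM. S100A8 rose nearly as far in ΔNLS as in WT (difference -0.33), whereas SPRR1B and IVL differed more between the lines (-1.54 and -1.47). FLG, filaggrin, had 1 count in the EGF group and reached 2.59 and 0.187 CPM on average.

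Of 16 keratins 2 rose, near the 13.2% of all genes, 4 fell, where 13% of all genes did, and 3 were opposite. The count of opposite keratins was 1 without EGF replicate 1 or EGF replicate 3 and 6 without the 3 libraries that stood apart. KRT5, the main basal keratin, fell from 3913.7, 5171.1 and 3765.4 CPM to 2133.5–2418.5 CPM in the WT line and 1606.9–2100.1 CPM in the ΔNLS line (-0.93 and -1.25). KRT13, a keratin of internal stratified epithelium, rose from 12, 21.2 and 11.9 CPM to 203, 291 and 222 CPM in WT and 35.3, 24.0 and 29.2 CPM in ΔNLS (3.99 and 0.98). In ΔNLS it came close to the highest EGF library, and without EGF replicate 3 the count of keratins that rose in both was 1. Of 17 lineage factors tested, 2 rose in both lines: TP63, the regulator of basal and stratified epithelium, and EHF. The progenitor factor SOX9 was the 1 that fell. Neither share was larger than the 13.2% and 13% of all genes. With library totals 5 of the 17 rose. TP63 went from 0.536, 0.958 and 0.967 CPM to 9.84, 6.65 and 8.59 CPM and to 3.66, 4.02 and 4.06 CPM (3.33 ± 0.21 and 2.24 ± 0.22). EHF rose by 1.51 and 0.73 on the log2 scale, and SOX9 fell by 0.98 and 0.82.

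Of 35 integrin, laminin and collagen genes 11 rose in both lines, where 13.2% of all genes did, and 4 fell, near the 13% of all genes, or 2 where each library had to hold 10 counts. ITGB4, the hemidesmosome integrin, rose by 0.56 and 0.82, LAMA3, a laminin chain that it binds, by 2.14 and 0.98, and ITGB2 by 1.0 and 1.01, while ITGA5, the fibronectin receptor chain, fell by 0.62 and 1.31. Of 22 proteases and inhibitors 5 rose, MMP2 (2.17 and 2.45) and PLAU (0.98 and 0.48) among them, 4 fell, PLAUR (-0.53 and -0.57) and MMP7 (-1.62 and -0.33) among them, and 5 were opposite. The count of 4 was 2 without ΔNLS replicate 3 or with library totals. PLAU and its receptor PLAUR moved in opposite directions in both lines. Of 23 NRF2 antioxidant genes 7 rose, where 13.2% of all genes did, and 3 fell, a share like that of all genes. Among those that rose was FTH1, ferritin heavy chain, at 1184.1, 1411.6 and 1144.6 CPM in the EGF libraries and 2458.0–2774.3 CPM and 2087.2–2491.1 CPM in the lines (1.04 and 0.83). AKR1C2, whose reads may be shared with AKR1C1 and AKR1C3, rose by 1.22 and 1.36.

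The remaining lists had few shared calls. Of 30 lysosome and autophagy genes 5 rose and 4 fell, near the 13.2% and 13% of all genes, and the 5 became 10 with library totals and 11 without the 3 libraries that stood apart. Of 18 cadherin and EMT regulator genes 2 rose (CLDN1 and FN1), or 1 without EGF replicate 1, EGF replicate 3 or ΔNLS replicate 3, and 1 fell (OCLN). Of 13 genes of the RNA interference machinery 1 rose (TNRC6B, 0.43 and 0.36) and 1 fell (DROSHA, -0.17 and -0.21). Both of these calls were lost when ΔNLS replicate 2 or ΔNLS replicate 3 was left out. Of 13 mitochondrially encoded subunits 1 rose and 1 fell, with overlapping libraries, and the medians were -0.03 and -0.01. Of 5 tested tumour suppressors, BRCA1 rose in both lines (0.60 and 1.06) and none fell in both.

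**Figure D5:**
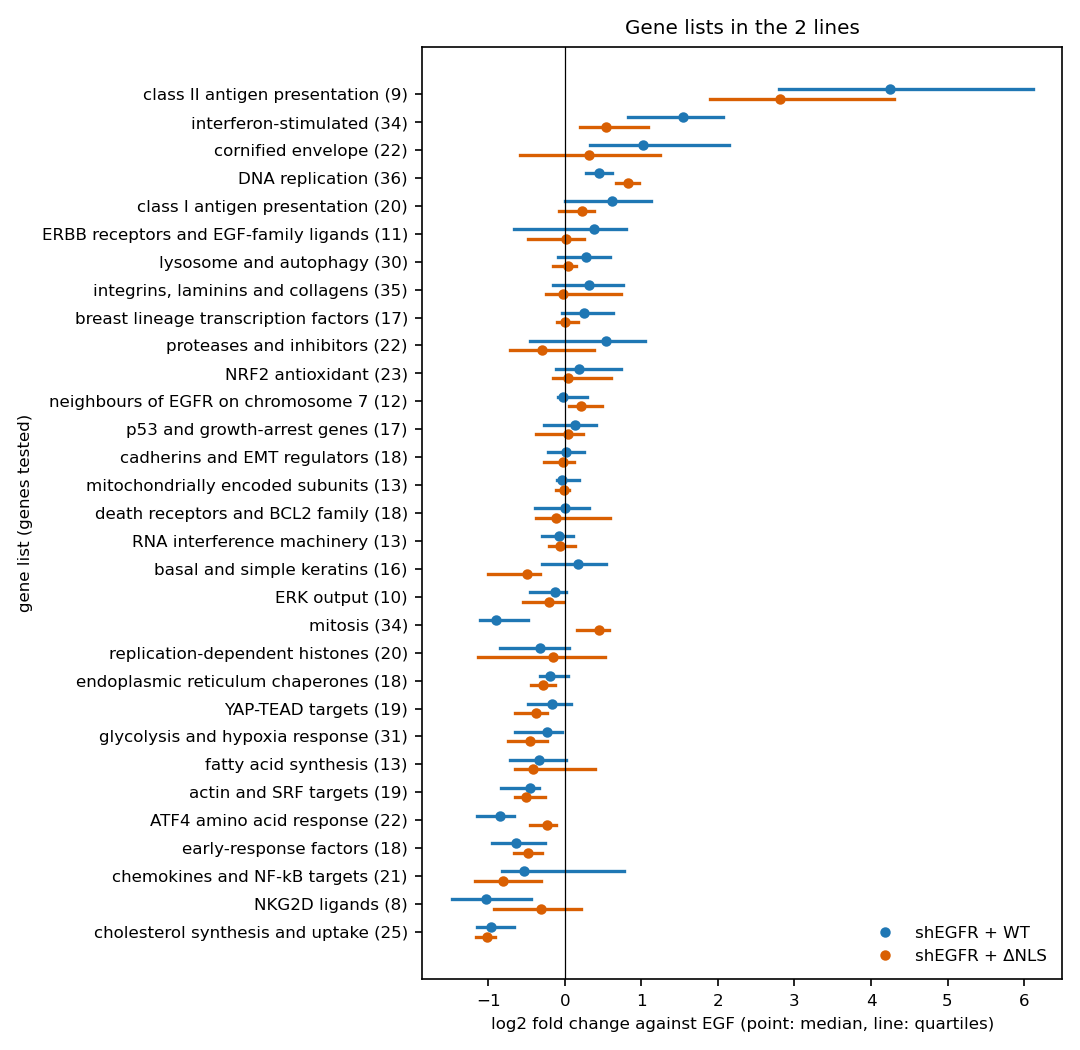
Median (point) and quartiles (line) of the log2 fold change against EGF over the tested genes of 31 lists, in the WT line (blue) and the ΔNLS line (orange). Cholesterol genes lie at -0.96 and -1.02 with narrow quartiles, replication genes at 0.45 and 0.82, and mitosis genes on either side of 0, at -0.89 and 0.44.

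The share of genes that moved together varied by genome segment. Of 285 windows of 10 Mb with at least 15 tested genes, none had a median log2 fold change beyond 0.5 in the same direction in both lines; window medians ranged from -0.39 to 0.66 in WT and -0.23 to 0.53 in ΔNLS. The share of genes higher in both lines was highest at 50% (8 of 16) from 80 to 90 Mb on chromosome 7, with medians of 0.66 and 0.31 and no gene lower in both. On chromosome 8 the 4 windows tested between 100 and 150 Mb had medians of 0.14–0.21 in WT and 0.31–0.41 in ΔNLS, and in them 11 of 40, 6 of 18, 16 of 40 and 21 of 96 genes were higher in both lines and at most 3 lower. These windows were picked after their values were seen. By chromosome, the share of genes higher in both lines ranged from 9.28% on chromosome 19 to 19.5% on chromosomes 4 and 8, and the medians in WT from -0.18 on chromosome 20 to 0.14 on chromosome 8.

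Genes that moved in opposite directions mark where the lines did not share a response, and by group mean the EGF libraries lay between them. ELOVL6, a fatty acid elongase, lay at 5.77, 7.28 and 7.03 CPM in the EGF libraries, 20.7, 17.2 and 18.3 CPM in the WT line and 2.22, 2.56 and 2.28 CPM in the ΔNLS line (1.48 ± 0.12 and -1.51 ± 0.14). PLAT, tissue plasminogen activator, went from 4.20–5.23 CPM to 10.4–10.8 CPM in WT and 2.34–2.69 CPM in ΔNLS, and SERPINB5, the inhibitor maspin, from 14.8–19.2 CPM to 33.3–38.0 CPM and 8.51–10.2 CPM. No library of one group overlapped another group in these genes. CYYR1 went the other way, from 7.87–11.1 CPM to 4.82–5.98 CPM in WT and 15.6–17.7 CPM in ΔNLS. IRS4, an insulin receptor substrate, lay at 0.881–1.15 CPM, 0.506–0.597 CPM and 1.89–2.29 CPM. These genes, with IL18BP, ATP13A5 and KIF18B, were the 4 of each kind with the largest change, and 205 of the 382 genes were higher in WT and lower in ΔNLS.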

How the data were processed

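The authors' methods name TrimGalore for trimming, STAR for alignment to GRCh38 and featureCounts for counting per gene, paired end and without regard to strand. The deposited values are raw counts for 61552 Ensembl genes. The annotation release is not given in the sources used here, and names and positions come from GENCODE 44, which held 61399 of the IDs. The submitters' processing notes name hg38 and DESeq2.

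The 9 libraries of the 3 groups were fitted together with edgeR 4.0.16 in R 4.3.3: TMM scaling, filterByExpr by group (16082 genes kept), a robust quasi-likelihood fit and Benjamini-Hochberg adjustment over all genes tested at a threshold of 0.05. Library totals of 24297146 to 35900649 set the precision, and depth limits genes with few counts. The study fitted ΔNLS against its WT line with DESeq2, which was run here (1.42.0) as an alternative. CPM were scaled by TMM, SE come from the fit, and a bound on a fold uses 3 counts per library. The script was first tested on simulated counts with known changes.

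The 15 genes named in each direction were called in both lines, protein-coding, at 1 CPM or more on average and without overlap between lines and EGF, ranked by the smaller of their log2 fold changes. Of genes in opposite directions, 4 of each kind were named by the same measure. Gene lists and members were chosen with earlier results of these data known, and the class II list after its values were seen. Some genes of the lists are not reported here by name, and remain in the counts.

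No replicates were duplicates. Deviations of same-numbered EGF and WT libraries from their group means correlated at 0.109, 0.356 and 0.183, beside -0.249 to 0.119 for different numbers. The value for number 1 lay within the range of different numbers. Same-numbered EGF and ΔNLS libraries gave -0.099, -0.167 and 0.027, while EGF replicate 2 and ΔNLS replicate 1, which both stood apart, gave 0.193. The numbers thus do not pair the 3 groups, and the main fit has no block.

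Alternatives were other scalings and filters, DESeq2, GC and length offsets, other sets of libraries, the replicate block, stricter thresholds and leaving out each library. Without the 3 libraries that stood apart, and the 2-group fits with the block, were added after seeing the data.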

Additional observations from a re-analysis of the deposited data

Results flagged for a closer look

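In 8 genes named above, the effects in the lines differed by a test of the difference itself, ΔNLS minus WT on the log2 scale, with edgeR's adjusted p in each case. Higher in WT were ELOVL6 (-2.99, adjusted p = 2.15e-10), PLAT (-2.11, 5.54e-09), SERPINB5 (-1.91, 2.54e-09) and IL18BP (-2.02, 6.95e-07), which overlaps NUMA1 on the opposite strand. Higher in ΔNLS were IRS4 (1.91, 8.55e-06), KIF18B (1.81, 0.000561), ATP13A5 (1.93, 1.55e-07), which overlaps PLAAT1, and CYYR1 (1.64, 8.51e-08), which overlaps an unnamed antisense gene. All 3 libraries of each line lay on the stated side of all 3 of the other in these genes. The rule picked the largest opposite changes, and all 382 genes called in opposite directions differed between the lines by this test. Size, adjusted p and separation of the lines in these 8 genes thus follow from the choice and are a description. KIF18B lost its opposite call in 6 of 22 settings, among them without EGF replicate 2, EGF replicate 3 or ΔNLS replicate 3 and with no filter, and IL18BP without the 3 libraries that stood apart and against a change of 1.5-fold.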

How the results depend on the processing

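Counts over all genes kept within 1.5 times of the values above under the other scalings, filters, DESeq2, library sets and offsets, with the exceptions given here. At an adjusted p under 0.01, 1398 genes were higher and 1377 lower in both lines, 200 were opposite and 4027 differed between the lines. Against a change of 1.5-fold, 1971 were called in WT and 1034 in ΔNLS, 375 were higher and 187 lower in both, 2 were opposite and 997 differed between the lines. Both are stricter tests by construction. Without the 3 libraries that stood apart, 659 were opposite, and the cause was not tested.

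Leaving out 1 library at a time gave 7192 to 8437 genes in WT, 5394 to 6987 in ΔNLS, 1773 to 2217 higher in both, 1730 to 2126 lower in both, 264 to 383 opposite and 4820 to 7004 between the lines. With the replicate block the counts were 8375 in WT, 6871 in ΔNLS, 2190 higher and 2200 lower in both, 439 opposite and 6426 between the lines. In fits of 2 groups with the block they were 10231 in WT and 5343 in ΔNLS. The block moved none of these by more than 1.5 times. Of 822 values recomputed for the 38 named genes under 22 settings, 810 kept their direction and call, 12 lost the call (SERPINB5, IL18BP, IRS4, ATP13A5, CYYR1 and KIF18B, all opposite genes) and 0 reversed. Depth limits genes under 1 CPM.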
